A study of Homo sapiens with 2 samples.

Results

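The genes described are the heat shock proteins and their DNAJ co-chaperones in U937 cells, a human acute myeloid leukemia line with monocytic features. They were taken as every gene whose single symbol on the array begins with DNAJA, DNAJB, DNAJC, HSPA, HSPB, HSPD, HSPE, HSPH or HSP90, leaving out symbols that end as antisense transcripts or pseudogenes, with the brightest measurement kept for a gene measured more than once. This gave 66 of the 22465 genes with a single symbol, 64 of them protein-coding. The other members are HSPA7, a transcribed pseudogene close in sequence to HSPA6, and DNAJC3-DT, a noncoding transcript next to DNAJC3 that carries only its name. Most members act in the cytosol and nucleus (36), fewer in the endoplasmic reticulum (11) and the mitochondria (8), and 11 act elsewhere or could not be placed. For 11 further symbols, among them HSPA8, HSP90B1 and HSPA1B, the array has only measurements shared with another gene, so they were not analysed here.

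TWIST-1-transduced U937 cells, which received TWIST-1 cDNA in a pCDH1-based lentiviral vector, were compared with U937 cells that received the empty vector. The study's transduction methods describe sorting for green fluorescent protein, while its array methods say only that the transduced cells were harvested. Total RNA of each of the 2 kinds of cells was hybridised to 1 Affymetrix Human Transcriptome Array. With 1 array per condition no difference has a replicate error and no test could be made, so an effect of TWIST-1 and a difference between the cultures or arrays cannot be told apart. A bulk array also cannot separate less RNA per cell from fewer cells that express a gene.

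HSP70 proteins hold unfolded stretches of other proteins and release them in a cycle driven by ATP. J-domain proteins of the DNAJA, DNAJB and DNAJC classes bring clients to HSP70 and speed up its ATP hydrolysis, and HSP110 proteins exchange the bound nucleotide so that the client is let go. HSP90 takes over clients such as kinases and steroid receptors at a late stage of folding, the HSP60 chaperonin encloses proteins inside mitochondria, and small heat shock proteins hold aggregating proteins without ATP. In the cytosol many of these genes are switched on by the heat shock factor HSF1, whereas the reticulum members answer to the unfolded protein response.

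The promoters show which members carry the letters of these control elements. RefSeq windows of 300 bases (250 before and 50 after the transcription start, GRCh38.p14) were at hand for 59 of the 66 members. The heat shock element was searched on both strands as 3 alternating units, GAANNTTCNNGAA or TTCNNGAANNTTC, which occurred in 6 of the 59 members (10.2%) and in 166 of 27305 genes in all (0.608%). The shorter form with 2 units, GAANNTTC or TTCNNGAA, lies inside the longer one and occurred in 20 of 59 members (33.9%) and 16.2% of all genes. Of these 20, 17 act in the cytosol and 3 in the mitochondria, and 0 of the 10 reticulum members with a window held it. Such a match describes the letters only. The 6 members with 3 units are printed here to show the element in full, 5′ to 3′ on the gene's own strand, with the 3-unit match in capitals. They lie at chr9:33025268-33025296 (plus strand) for DNAJA1, chr14:102087090-102087162 (minus strand) for HSP90AA1, chr7:157336843-157336915 (plus strand) for DNAJB6, chr6:44247748-44247873 (plus strand) for HSP90AB1, chr2:197500038-197500090 (minus strand) for HSPD1 and chr1:161524436-161524508 (plus strand) for HSPA6. The match in DNAJA1 lies just after the start, at bases 4 to 16, and the others lie before it. HSP90AB1 held 2 separate matches and HSPD1 2 overlapping ones.
DNAJA1: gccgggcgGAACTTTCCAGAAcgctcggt
HSP90AA1: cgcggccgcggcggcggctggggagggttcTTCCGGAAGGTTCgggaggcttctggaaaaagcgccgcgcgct
DNAJB6: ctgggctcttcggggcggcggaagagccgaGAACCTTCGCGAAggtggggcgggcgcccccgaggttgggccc
HSP90AB1: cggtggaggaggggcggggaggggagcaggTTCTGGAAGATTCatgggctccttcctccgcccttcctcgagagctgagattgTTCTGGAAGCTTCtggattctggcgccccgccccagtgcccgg
HSPD1: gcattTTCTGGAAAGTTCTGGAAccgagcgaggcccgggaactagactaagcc
HSPA6: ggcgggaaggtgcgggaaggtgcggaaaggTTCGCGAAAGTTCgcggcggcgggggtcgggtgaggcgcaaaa

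The same 6 genes did not share a direction on the arrays, with log2 ratios (TWIST-1 minus vector) from -0.40 for DNAJA1 to 0.17 for HSPA6 and a median of -0.14. Over the 20 members with at least 2 units the median was -0.02. The stress-inducible HSP70 gene HSPA1A held 2 units at bases 106 to 99 before its start. HSPH1, the member with the lowest ratio, held none in its window. Their 250 bases before the start are printed because HSPA1A, the classic stress gene, had nearly equal values on both arrays and HSPH1 the widest gap. HSPA1A lies at chr6:31815293-31815542 (plus strand), with the heat shock units in capitals, and HSPH1 at chr13:31162389-31162638 (minus strand), with its only E-box before the start in capitals. The E-box, CANNTG, reads the same on both strands and is the element bound by basic helix-loop-helix factors such as TWIST-1. It was found in 39 of 59 members (66.1%) and in 73.1% of all genes, shares near each other. The 39 members had a median ratio of 0, and binding of TWIST-1 was not tested.
HSPA1A: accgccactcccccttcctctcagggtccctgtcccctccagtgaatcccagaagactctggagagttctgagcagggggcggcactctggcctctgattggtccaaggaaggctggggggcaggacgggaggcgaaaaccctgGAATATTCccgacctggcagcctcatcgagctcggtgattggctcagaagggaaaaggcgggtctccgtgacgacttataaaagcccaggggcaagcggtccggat
HSPH1: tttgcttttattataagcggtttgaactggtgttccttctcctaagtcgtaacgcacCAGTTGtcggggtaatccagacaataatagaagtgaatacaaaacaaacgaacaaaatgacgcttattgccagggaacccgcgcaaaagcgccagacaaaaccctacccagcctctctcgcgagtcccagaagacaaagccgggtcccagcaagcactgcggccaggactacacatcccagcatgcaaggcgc

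The ER stress response element, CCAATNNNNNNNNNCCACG or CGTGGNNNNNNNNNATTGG, was found in 1 member, HSPA5, and in 25 of all genes (0.0916%). HSPA5 encodes BiP, the HSP70 of the reticulum lumen. The stretch lies at chr9:125241361-125241439 (minus strand), and its capitals mark the element at bases 66 to 48 before the start.
HSPA5: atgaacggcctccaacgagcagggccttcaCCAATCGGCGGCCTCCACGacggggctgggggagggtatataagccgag

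Values below are the deposited log2 levels, and a ratio is the TWIST-1 level minus the vector level of the same gene, so a negative ratio means less RNA in TWIST-1 cells. Levels of different genes come from different probes, so they are used only to sort genes by brightness, not to compare amounts of RNA. A difference was counted from 1.2-fold, a log2 ratio of 0.26, the size of change the study used. The study also set a p-value limit, which was not applied here because no p-value can be had from single arrays. At that size 5 of the 66 members were lower in TWIST-1 cells, HSPH1, DNAJA1, DNAJC3, DNAJA2 and DNAJC5B (7.58%, against 2.85% of all genes). A single member, HSPB8, was higher (1.52%, against 2.71% of all genes). Over all members 33 ratios were below 0, 28 above and 5 exactly 0, with a median of -0.0020. Of all genes, 34.8% were below 0, with a median of 0.04.

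**Figure D1:**
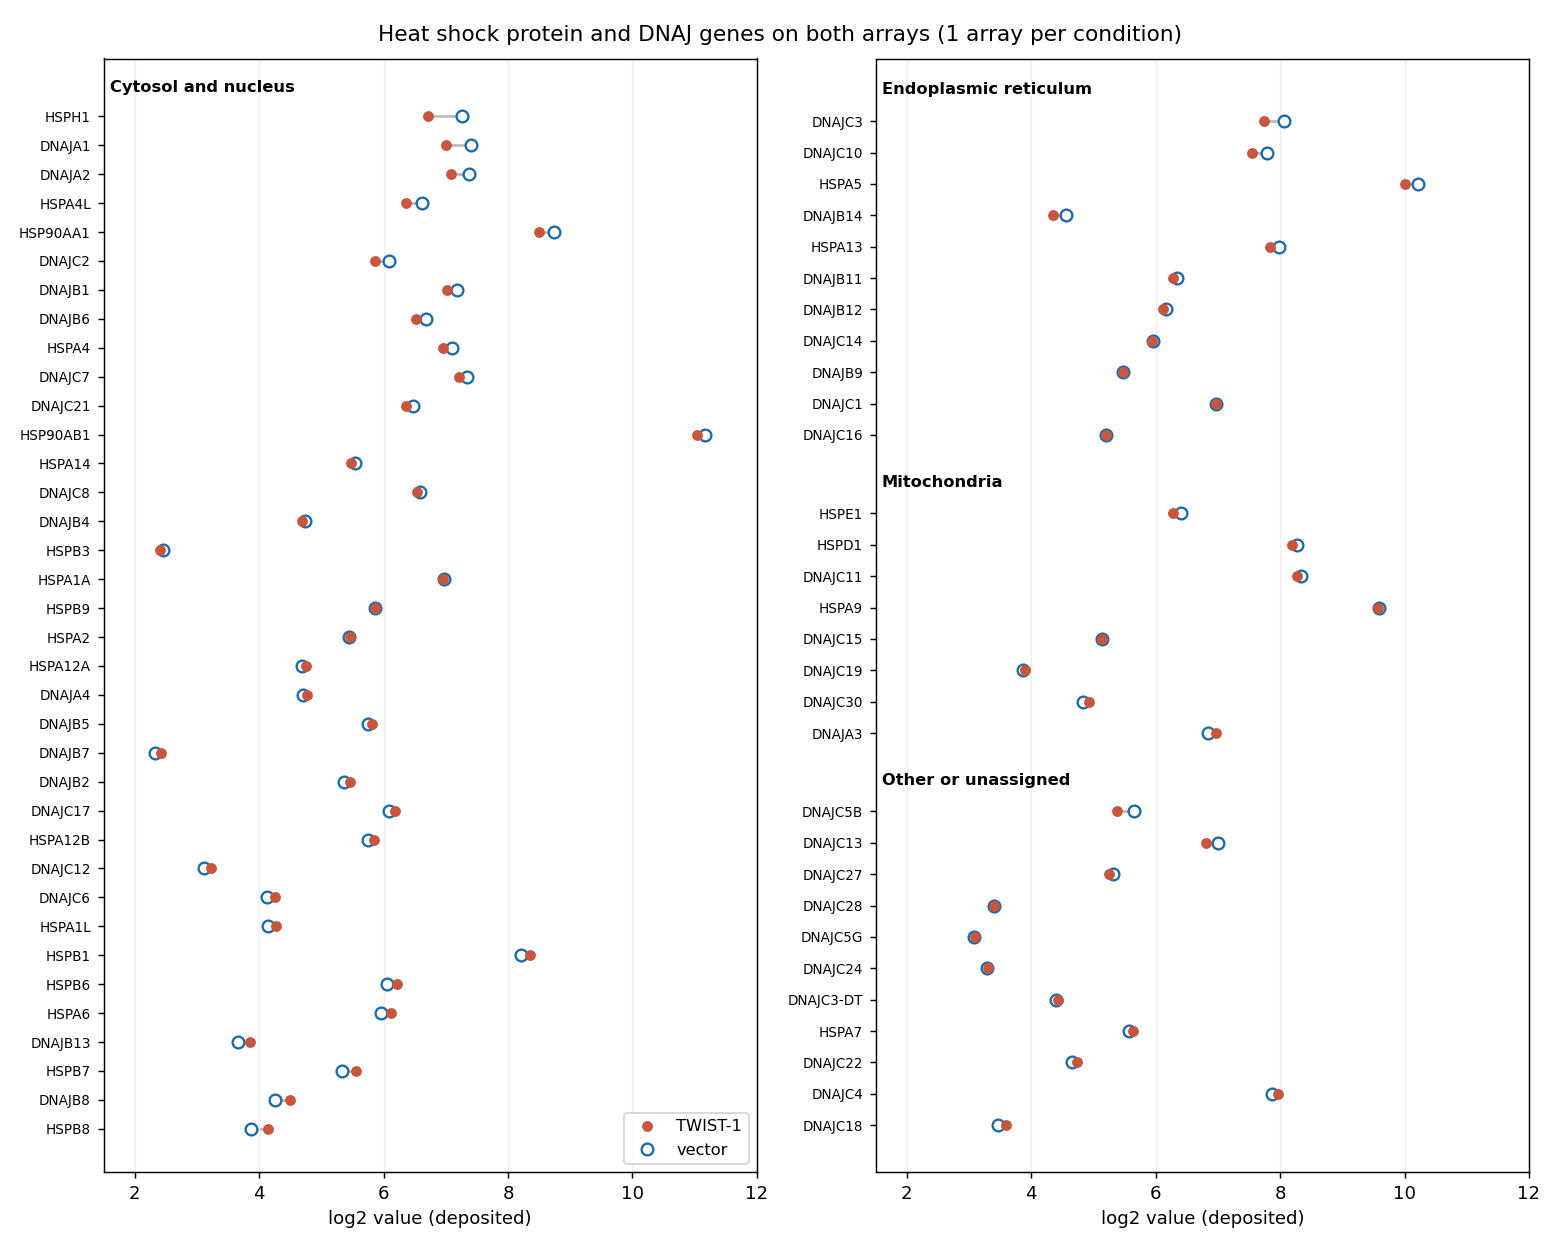
Log2 value (x axis) of each of the 66 members (rows, grouped by compartment) on the TWIST-1 array (filled red) and the vector array (open blue), 1 array per condition, so no error bars. The widest gap is that of HSPH1, 6.71 in TWIST-1 and 7.26 in vector cells, and most pairs of points touch or overlap.

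How a gene's ratio lay depended on its level. In 20 bins of level holding all genes, the median ratio was 0.05 in the dimmest bin, reached 0.08 in the bin around a level of 5.04 and was -0.07 in the brightest. The members are bright, with 45 of 66 at or above the median level of all genes (5.19), so they are best read against genes of that range. Among these 45 members, 5 were at least 1.2-fold lower (11.1%, against 4.23% of all genes in that range) and 0 were higher (against 1.66%). Their ratios were below 0 in 30 (66.7%, against 46.5%), and their median was -0.06, against 0.0035 for all genes in that range. The 21 dimmer members had a median of 0.07, as all dim genes did (0.07), with 16 ratios above 0. A loess normalization between the arrays, which takes out a trend with level, left the 45 brighter members at a median of -0.06, against -0.0010 for all genes of that range.

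**Figure D2:**
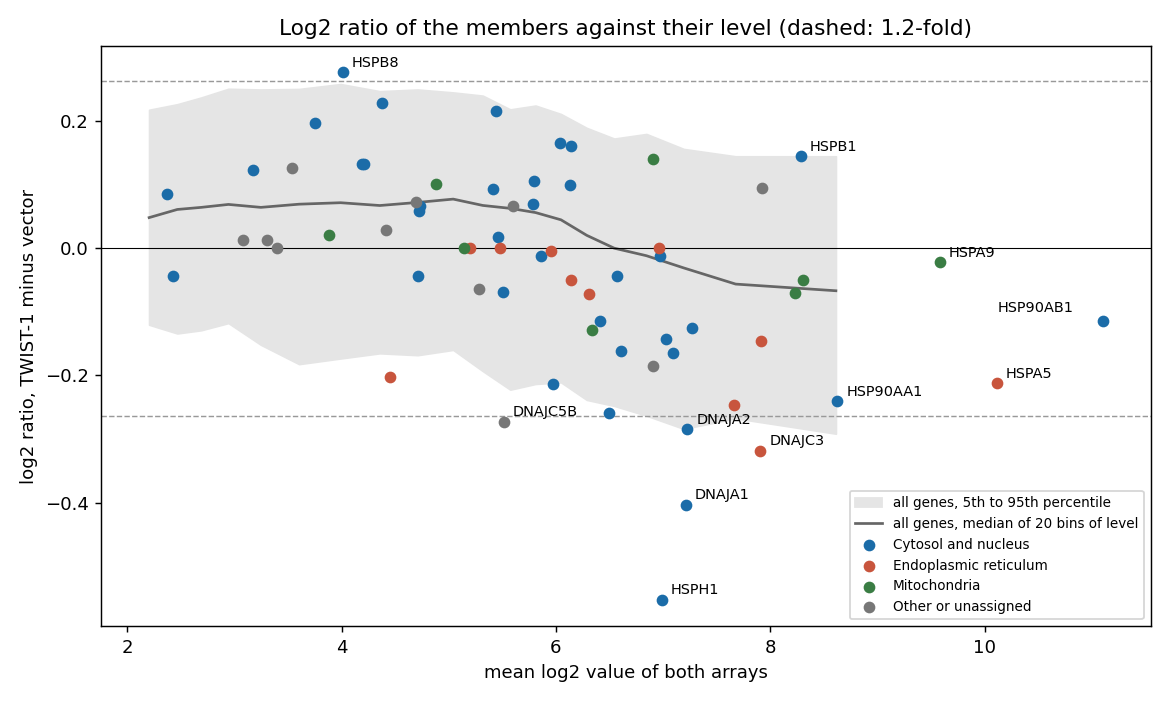
Log2 ratio of TWIST-1 minus vector (y axis) against the mean log2 value of both arrays (x axis) for the 66 members (points, coloured by compartment), over the median (line) and the 5th to 95th percentile (grey band) of all genes in 20 bins of level. The line runs from 0.05 at the dim end to -0.07 at the bright end, and HSPH1 and DNAJA1 lie farthest below the band.

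The HSP110 class had the lowest median of the family. HSPH1 encodes HSP105, a heat-inducible HSP110 protein that exchanges nucleotide on cytosolic HSP70. Its level was 6.71 in TWIST-1 cells and 7.26 in vector cells, a ratio of -0.55 or 1.47-fold lower, which ranked 30 from the lowest of the 22465 genes. HSPA4L, its relative with high expression in testis, had 6.36 in TWIST-1 and 6.62 in vector cells, a ratio of -0.26 that fell just short of 1.2-fold as deposited and passed it when centred (-0.30), with loess (-0.27) and with a repeated quantile normalization (-0.264). HSPA4, the widely expressed member, had 6.96 in TWIST-1 and 7.10 in vector cells, a ratio of -0.14. All 3 HSP110 members taken by symbol were thus lower, with a median of -0.26. Each was below 0 in all 4 scalings (as deposited, centred, loess and repeated quantile). HYOU1, a reticulum relative under another symbol, had -0.03 as deposited and -0.08 when centred. With loess it had 0.02 and with a repeated quantile normalization 0.03.

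HSP70 genes shared no direction. Of 11 members, 0 passed 1.2-fold, 5 were below 0 and 6 above, with a median of 0.02 that turned to -0.02 when every ratio was centred (the median of all genes set to 0) and to -0.01 with loess. The stress-inducible HSPA1A had 6.96 in TWIST-1 and 6.97 in vector cells, a ratio of -0.01 that turned to 0.01 under a repeated quantile normalization. It is read by 4 measurements named for alternative haplotypes of the HLA region, whose ratios ran from -0.06 to -0.01. Its near-identical copy HSPA1B can bind the same probes, so the signal cannot be given to 1 of the genes. HSPA6, which is strictly induced by stress in human cells and shares sequence with HSPA7, had 6.12 in TWIST-1 and 5.95 in vector cells, a ratio of 0.17. The pseudogene HSPA7 had a ratio of 0.07. HSPA1L, a testis HSP70 of the same region, had 0.13 by its brightest measurement, but its 5 measurements ran from -0.04 to 0.15, so its direction depends on which is taken. HSPA14, the HSP70 bound to ribosomes, had -0.07, HSPA2 0.02, and the atypical HSPA12A and HSPA12B 0.06 and 0.11. The ratio of HSPA2 was below 0 in the 3 other scalings (-0.03 to -0.02), and that of HSPA12A with loess alone (-0.01).

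Both cytosolic HSP90 genes were lower by less than 1.2-fold, whereas TRAP1, a mitochondrial relative under another symbol, was higher (0.145, or 0.20 with loess). HSP90AA1, the inducible HSP90, had 8.505 in TWIST-1 and 8.745 in vector cells, a ratio of -0.24 that passed the threshold when centred (-0.28) and was -0.18 with loess. HSP90AB1, the constitutive one, had 11.05 in TWIST-1 and 11.16 in vector cells, a ratio of -0.11, which loess moved to 0.0085. Both chaperonin genes were also below 0, by less than 1.2-fold. HSPE1, the lid of the mitochondrial chaperonin, had 6.27 in TWIST-1 and 6.40 in vector cells (-0.13). HSPD1, the barrel, had 8.19 in TWIST-1 and 8.26 in vector cells (-0.07, or -0.02 with loess).

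Small heat shock proteins had the highest class median, 0.15, against 0.04 for all genes. Under each scaling 4 of the 6 were above 0, a share near that of all genes as deposited (13472 of 22465). HSPB8, which works with BAG3 in autophagy of misfolded clients, had 4.15 in TWIST-1 and 3.87 in vector cells, a ratio of 0.28 or 1.21-fold higher. It is a dim measurement, and it fell short of 1.2-fold under the other scalings (0.21 to 0.23). HSPB1, which encodes HSP27, had 8.36 in TWIST-1 and 8.21 in vector cells, a ratio of 0.14. HSPB6 had 6.22 in TWIST-1 and 6.06 in vector cells (0.16), and HSPB7, known from heart muscle, 5.55 in TWIST-1 and 5.34 in vector cells (0.22). Among all genes the brightest bin had a median of -0.07 and a 95th percentile of 0.14, and HSPB1, a bright measurement, lay at that upper edge. HSPB3 and HSPB9 had ratios of -0.04 and -0.01.

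**Figure D3:**
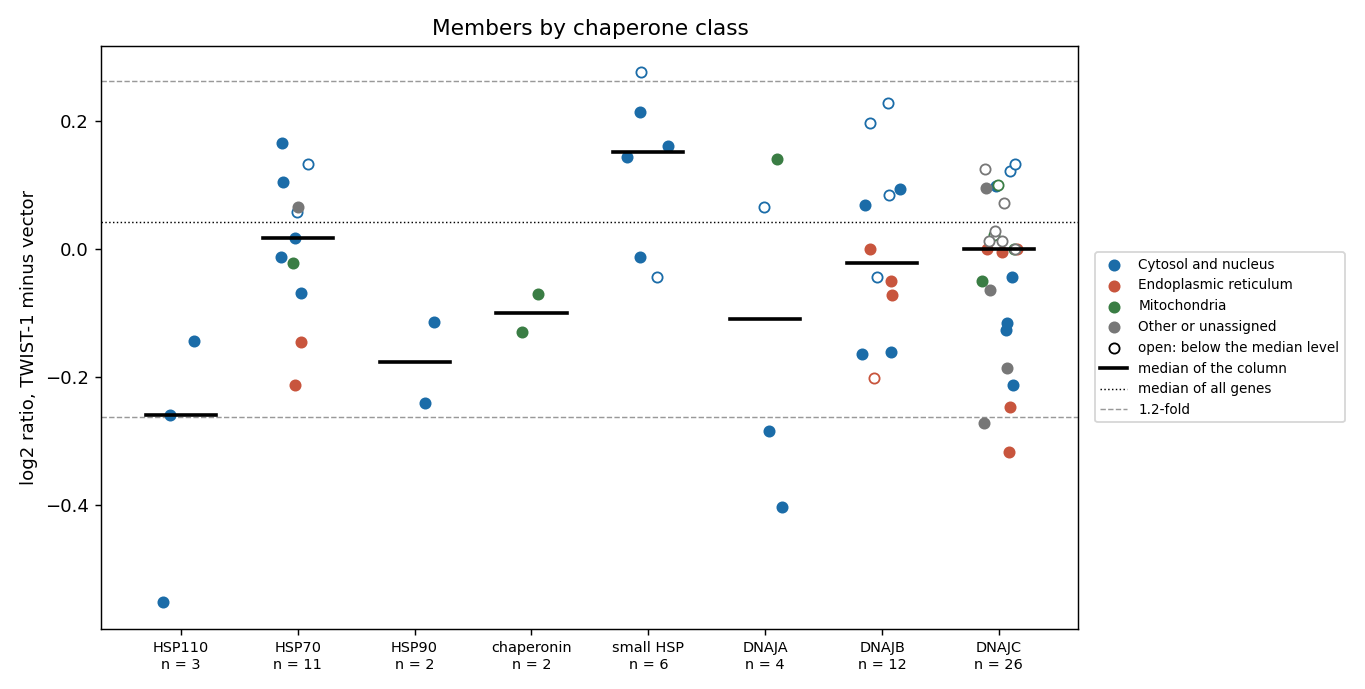
Log2 ratio of TWIST-1 minus vector (y axis) of the 66 members by chaperone class (x axis), coloured by compartment, with open points for genes below the median level, bars for the class medians, a dotted line for the median of all genes (0.04) and dashed lines at 1.2-fold. HSP110 has the lowest median (-0.26) and small heat shock proteins the highest (0.15), while DNAJC spans -0.32 to 0.13.

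Among the J-domain proteins, DNAJA was split. DNAJA1 and DNAJA2 are the main class A partners of cytosolic HSP70 in folding and disaggregation. DNAJA1 had 7.01 in TWIST-1 and 7.41 in vector cells, a ratio of -0.40 or 1.32-fold lower, which ranked 107 from the lowest. DNAJA2 had 7.08 in TWIST-1 and 7.37 in vector cells, a ratio of -0.28 or 1.22-fold lower, which came to -0.25 under a repeated quantile normalization and then missed the threshold. DNAJA3, the mitochondrial member of the same class, was higher, at 6.97 in TWIST-1 and 6.83 in vector cells (0.14). The dimmer DNAJA4 had 0.07, which loess moved to -0.0035.

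DNAJB members had 6 ratios below 0, 5 above and 1 at 0, with a median of -0.02 and 0 of 12 past 1.2-fold. DNAJB1, the heat-inducible HSP40, had 7.01 in TWIST-1 and 7.18 in vector cells (-0.16). DNAJB6, a strong suppressor of polyglutamine aggregation, had 6.52 in TWIST-1 and 6.68 in vector cells (-0.16). At the other end of the class lay DNAJB8 (0.23) and DNAJB13 (0.20), a pair of testis genes measured below the median level of all genes.

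DNAJC, the broadest class, whose proteins share little beyond the J domain, had 11 ratios below 0, 11 above and 4 at 0. These 26 count the noncoding DNAJC3-DT (0.03), which belongs by symbol only. At least 1.2-fold lower were 2 of 26 (7.69%, against 2.85% of all genes). DNAJC3 encodes an inhibitor of the kinases that block translation under stress and a BiP partner in the reticulum. It had 7.75 in TWIST-1 and 8.06 in vector cells, a ratio of -0.32 or 1.25-fold lower. DNAJC5B, a relative of the cysteine string protein of secretory vesicles, had 5.38 in TWIST-1 and 5.65 in vector cells, a ratio of -0.27 or 1.21-fold lower. Of the cytosolic members, DNAJC2, which sits at the ribosome exit tunnel, had 5.87 in TWIST-1 and 6.08 in vector cells (-0.21), and DNAJC7, a bridge between HSP70 and HSP90, had -0.13. DNAJC21, needed to mature large ribosomal subunits, had -0.12, and DNAJC13, which acts on endosomes, -0.19. Ratios above 0 in this class went no higher than 0.13, in the clathrin uncoating factor DNAJC6, a dim measurement.

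By compartment and over all levels, reticulum members were the most one-sided. Of 11, 8 were below 0, 3 were exactly equal on both arrays and 0 were above, with a median of -0.07, against 0.0030 for the cytosol and -0.01 for the mitochondria. This count depends on how members were placed. Of the 11 members grouped as elsewhere or unplaced, 7 were above 0 and 3 below, DNAJC18 among the former (0.13, or 0.06 with loess). The 7 include the noncoding DNAJC3-DT (0.03) and the pseudogene HSPA7 (0.07). At or above the median level, 7 of 10 reticulum, 16 of 25 cytosolic and 4 of 5 mitochondrial members were below 0. The share of all genes in that range was 46.5%. With loess, which takes out the trend with level, the counts were 9 of 10, 16 of 25 and 3 of 5, against 50.3%. The 5 mitochondrial members then had a median of -0.0017. DNAJC3 was the one reticulum member at least 1.2-fold lower (9.09%, against 2.85% of all genes and 4.23% of those at or above the median level). DNAJC10, which reduces disulfides of proteins bound for degradation, followed at 7.54 in TWIST-1 and 7.79 in vector cells (-0.25). HSPA5 had 10.01 in TWIST-1 and 10.22 in vector cells, a ratio of -0.21 that loess brought to -0.11. DNAJB14, whose J domain faces the cytosol, had 4.35 in TWIST-1 and 4.55 in vector cells (-0.20), and with loess (-0.27) or a repeated quantile normalization (-0.26) it passed 1.2-fold. HSPA13, an HSP70-like protein of the microsomes, had 7.84 in TWIST-1 and 7.99 in vector cells (-0.15). DNAJB11, a BiP partner that binds nascent chains, had 6.27 in TWIST-1 and 6.34 in vector cells (-0.07), and -0.10 by its other measurement.

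The remaining reticulum members hardly differed between the arrays. DNAJB12 had -0.05 and DNAJC14 -0.0041. DNAJB9, a BiP partner induced by the unfolded protein response, had 5.48 on both arrays, DNAJC1 had 6.96 on both and DNAJC16 had 5.196 on both. Leaving out DNAJB12, DNAJB14 and DNAJC14, whose J domains face the cytosol, the median of the other 8 was -0.11. Under loess and a repeated quantile normalization 10 of 11 reticulum ratios were below 0 and DNAJC1 was above.

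Cytosolic and nuclear members covered both ends of the family. Their 36 ratios were split evenly, 18 below and 18 above 0, from -0.55 for HSPH1 to 0.28 for HSPB8. Of these, 3 were at least 1.2-fold lower (8.33%, against 2.85% of all genes) and 1 higher (2.78%, against 2.71%). Their median was -0.04 when centred, -0.0081 with loess and -0.01 with a repeated quantile normalization. The split followed level. The 25 at or above the median level had a median of -0.07 and 16 ratios below 0, and the 11 dimmer ones had a median of 0.12 and 9 above 0. Of the reticulum members 10 of 11 were at or above the median level, against 25 of 36 cytosolic ones. Over all members the reticulum median minus the cytosol median was -0.07, and among those at or above the median level it was 0.0075 (reticulum -0.06, cytosol -0.07), or -0.03 with loess.

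Mitochondrial members lay close to 0, with 0 of 8 past 1.2-fold under any scaling and ratios from -0.13 for HSPE1 to 0.14 for DNAJA3. HSPA9, the mitochondrial HSP70 that pulls in imported proteins, had 9.57 in TWIST-1 and 9.59 in vector cells, a ratio of -0.02 that turned to 0.06 with loess and 0.03 with a repeated quantile normalization. DNAJC11, a protein of the cristae junctions, had 8.28 in TWIST-1 and 8.33 in vector cells (-0.05). DNAJC15 had 5.14 on both arrays, and DNAJC19, a part of the import motor, had 0.02, or -0.05 with loess. The reticulum median minus the mitochondrial median was -0.06 over all members and -0.01 among the brighter ones, where it was -0.08 with loess.

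**Figure D4:**
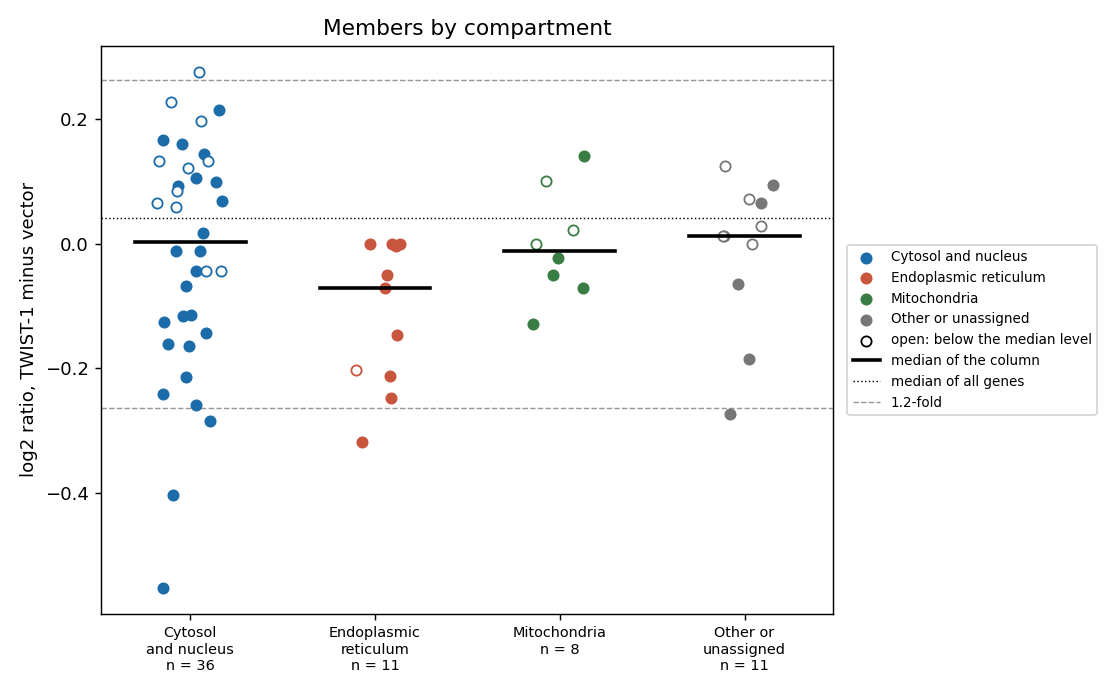
Log2 ratio of TWIST-1 minus vector (y axis) of the 66 members by compartment (x axis), with open points for genes below the median level, bars for the medians (cytosol 0.0030, reticulum -0.07, mitochondria -0.01), a dotted line for the median of all genes (0.04) and dashed lines at 1.2-fold. No point placed in the reticulum here lies above 0, and the open cytosolic points lie mostly above it.

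Genes that work with the family showed few differences of this size. The regulators HSF1, at 7.03 in TWIST-1 and 6.92 in vector cells (0.10), and HSBP1, its binding partner, at 0.05, were the measured ones of 4 listed. All 11 nucleotide exchange factors of HSP70 were measured, and 0 were past 1.2-fold, from GRPEL1 of the mitochondria (-0.18) to HSPBP1 (0.14), with a median of 0.0024 that was -0.04 when centred. BAG3, the partner of HSPB8, had 0.04, or -0.0042 when centred. Of 13 HSP90 co-chaperones 11 were measured, 0 past 1.2-fold as deposited, with 8 below 0 and a median of -0.08. The lowest was PTGES3, which encodes p23, at 8.12 in TWIST-1 and 8.37 in vector cells (-0.24), and the highest STUB1, a ubiquitin ligase of chaperone clients (0.06). PTGES3 was past 1.2-fold when centred (-0.29), and in its place CDC37L1, a relative of the kinase co-chaperone CDC37, was past it with loess (-0.28) and with a repeated quantile normalization (-0.27). Cytosolic chaperonin and prefoldin subunits (13 of 14 measured) had 9 ratios below 0 and a median of -0.06, from CCT6A (-0.24) to PFDN2 (0.12). As deposited 0 were past 1.2-fold, and when centred 1 of 13 was lower, as were 4.83% of all genes.

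Reticulum folding and unfolded protein response genes resembled the reticulum members. Of 23 measured, 18 were below 0, with a median of -0.09. With centred ratios 2 of 23 were at least 1.2-fold lower, where 4.83% of all genes and 7.30% of those at or above the median level were. As deposited 1 was (4.35%, against 2.85% of all genes and 4.23% of those at or above the median level). This was ATF6, a sensor of the unfolded protein response, at 5.60 in TWIST-1 and 5.91 in vector cells (-0.31). The highest was SDF2L1, a BiP partner, at 0.10. Of these 23 genes 22 are at or above the median level, the range in which 46.5% of all genes were below 0. Their median level was higher in that range, 7.61 in TWIST-1 and 7.72 in vector cells. In the bin around a level of 7.68 the median ratio of all genes was -0.06. The median of the 23 was -0.08 with loess and -0.06 with a repeated quantile normalization. All genes at or above the median level then had -0.0010 and 0.0064. Mitochondrial quality control genes (14 of 14 measured) were split 7 to 7 with a median of 0.02 (-0.02 when centred), from the protease YME1L1 (-0.23) to the protease LONP1 (0.16). As deposited 0 passed 1.2-fold, and when centred 1 of 14 was lower, as were 4.83% of all genes. Relatives that carry other symbols (7 of 8 measured) ran from the reticulum J protein SEC63 (-0.12) to the small heat shock protein CRYAB (0.18), with 0 past 1.2-fold.

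Other scalings kept the balance of the family on the lower side. With centred ratios 8 members were at least 1.2-fold lower (12.1%, against 4.83% of all genes) and 0 higher (against 1.46%). The added members were HSPA4L, HSP90AA1 and DNAJC10. With loess 7 were lower (against 3.68%) and 0 higher (against 1.48%), and with a repeated quantile normalization 6 were lower (against 3.36%) and 0 higher (against 1.59%). HSPH1, DNAJA1, DNAJC3 and DNAJC5B were at least 1.2-fold lower in all 4 scalings. The median of all members was -0.04, -0.05 and -0.04 under these 3 scalings, against 0, 0.0048 and 0.01 for all genes.

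**Figure D5:**
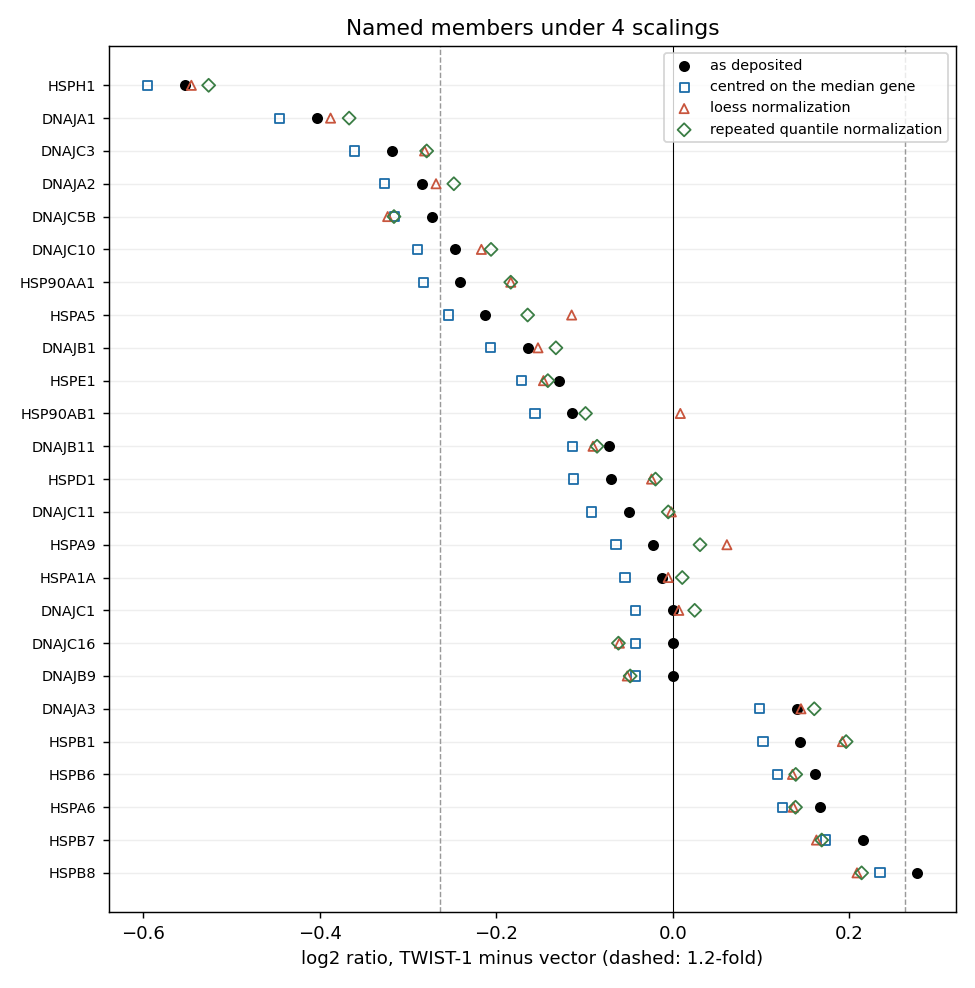
Log2 ratio of TWIST-1 minus vector (x axis) of the 25 named members (rows) as deposited and under 3 other scalings, with dashed lines at 1.2-fold. HSPH1, DNAJA1, DNAJC3 and DNAJC5B stay beyond the lower line under all 4, and HSPB8 lies beyond the upper line only as deposited.

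The introduced gene, TWIST1, had a level of 4.34 in TWIST-1 and 4.13 in vector cells, a ratio of 0.21 (0.14 to 0.17 under the other scalings), short of 1.2-fold and measured below the median level. In the bin of all genes around a level of 4.36 the 95th percentile was 0.25, so the ratio of TWIST1 lay inside the range of genes of its level and does not settle the labels. Of 11 listed myeloid markers 10 were measured, each brighter than the median gene, with 5 ratios below 0. LYZ, the lysozyme gene, had 11.4 in TWIST-1 and 11.6 in vector cells (-0.27) and FCER1G, an Fc receptor subunit, 8.09 in TWIST-1 and 8.56 in vector cells (-0.47), and as deposited only these 2 of the myeloid markers passed 1.2-fold. FCER1G passed it in all 4 scalings, whereas LYZ fell short with loess (-0.14) and with a repeated quantile normalization (-0.2597), and TYROBP, a signalling adaptor, passed it when centred (-0.29). All 3 T cell markers, 2 of 3 epithelial markers and 1 of the 2 B cell markers measured lay below the median level on the mean of both arrays. The erythroid factor KLF1, the one measured of 3 erythroid markers, had 6.90 in TWIST-1 and 6.55 in vector cells (0.35). The part of any such difference between the cells in the chaperone ratios was not tested.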

How the data were processed

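RNA of TWIST-1-transduced and vector-transduced U937 cells was measured on 1 Affymetrix array each. The authors deposited log2 values, 1 per transcript cluster (the probes of 1 transcribed locus), after quantile normalization as the study's methods state. Affymetrix Expression Console is named in the submitters' processing notes. How probes were summarised was not given in the sources used here, nor was the background correction. Of 67528 clusters, the 23781 with a single symbol in the platform annotation gave 22465 genes, and the brightest cluster stood for a gene with several. For 21497 of these clusters the gene was found in RefSeq and its RefSeq symbol was used, whether or not it differed. Clusters of 1 gene differed in log2 ratio with a pooled SD of 0.07 (479 genes).

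With 1 array per condition no test was made. Members, compartments and gene lists were chosen with earlier results of these data known. Named are members past 1.2-fold, the 3 highest and 3 lowest bright members of each compartment and a preset list of well-known members, and of other lists the genes past 1.2-fold or the highest and lowest. Further genes were named, after their values were seen, to describe each class. Alternatives were centring on the median gene, cyclic loess (limma 3.58.1, R 4.3.3, span 0.7, 3 iterations), repeated quantile normalization, an offset of 16 on linear values, averaging all clusters of a gene, keeping only genes at least as bright as the median gene, and 1.5-fold. The step that counts genes was tested on simulated data. Python 3.11.15, numpy 2.4.6 and pandas 2.3.3 did the rest. The number of arrays limits the precision.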

Additional observations from a re-analysis of the deposited data

How the results depend on the processing

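The count of members at least 1.2-fold higher was 1 as deposited and 0 with centring on the median gene, loess normalization, repeated quantile normalization, an offset of 16, genes at or above the median level alone, or 1.5-fold. The count at least 1.2-fold lower was 5 as deposited, 8 when centred, 3 with the offset and 0 at 1.5-fold. The share of all genes was not computed for the offset or for 1.5-fold. By construction centring lowers every ratio by 0.04, the offset pulls ratios of dim genes towards 0 and 1.5-fold is a stricter size. The median of cytosolic members was 0.0030 overall and -0.068 for those at or above the median level. Of 125 alternative values of the 25 named members, 120 moved by less than 0.07, the SD between measurements of 1 gene. The other 5 were DNAJC5B (-0.20) and HSPB8 (0.14) with the offset, and HSPA5 (-0.11), HSP90AB1 (0.0085) and HSPA9 (0.06) with loess, and the cause was not tested. Centring could not move a value past 0.07, and averaging could change only DNAJB11 and HSPA1A of the named members. The count of 120 is therefore not a measure of stability. Some measurements behind the SD, such as those of HSPA1A, are named for haplotypes of 1 region, so it is not a replicate error. Counting only the 64 protein-coding members, an alternative chosen after seeing the data, left both counts as they were. No paired analysis was possible because each condition has 1 array. A level near that of the dimmest genes may be background, so ratios of dim members such as HSPB8 are the least certain.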

Other observations

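Of the 66 members, 5 had exactly the same deposited value on both arrays: DNAJB9 and DNAJC1 and DNAJC16 of the reticulum, DNAJC15 of the mitochondria, and DNAJC28 (7.58%). Among all genes 1177 did (5.24%). Under loess 4 of these 5 had ratios from -0.06 to -0.05, and DNAJC1 had 0.0068, so a ratio of 0 here does not show that a gene had equal RNA in both cells. The 4 measurements of HSPA1A had the same mean of both arrays, 6.97, while their ratios ran from -0.06 to -0.01.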
